A study of Rattus norvegicus with 18 samples.

Results

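Total RNA from the amygdala of handled, unstressed rats was set against total RNA from the cortex of handled, unstressed rats. The comparison holds 6 of the 18 Affymetrix rat expression arrays of the series, the 3 whose titles name control amygdala and the 3 whose titles name control cortex. The other 12 arrays come in groups of 3, namely amygdala, hippocampus and cortex after chronic immobilization stress and the hippocampus of handled rats. The stress amygdala and stress cortex arrays are used below for the same contrast, because they do not enter the handled differences. All 18 arrays enter the filter and the estimate of spread. The source field and the opening of every title name the amygdala for all 18 arrays, so the region was taken from the end of the title, which the description matches, and set against marker transcripts. Strain, age, sex, the amygdala nuclei and the cortical area that were dissected are not stated by the labels. The labels also leave it unsaid whether the 3 arrays of a group are separate animals, pools or repeats of the same RNA. Every p-value below measures only the spread between arrays within groups, pooled over all 6 groups.

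The amygdala is a cluster of nuclei in the ventral temporal lobe that links sensory input to fear, reward and social responses. Its basolateral nuclei hold glutamatergic projection neurons related to those of the cortex, while its central and medial nuclei hold many GABA neurons, related to those of the striatum, that use neuropeptides. The cortex is a layered sheet of glutamatergic pyramidal neurons with local GABA interneurons, and the meninges lie directly on its surface. Each array reads a whole piece of tissue, in which fewer cells of a type and less RNA per cell cannot be told apart.

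Each value is the intensity of 1 probe set on 1 array, in arbitrary units on a linear scale. Median intensities were 52.9 to 54.2 on the amygdala arrays and 50.9 to 51.0 on the cortex arrays. The Spearman correlation over probe sets was 0.956 to 0.958 among the amygdala arrays and 0.961 to 0.963 among the cortex arrays, against 0.948 to 0.951 between an amygdala array and a cortex array. Differences are given as amygdala minus cortex on the scale log2(intensity + 16), with the standard error from limma, and this offset understates the difference of dim transcripts. A transcript is called when its Benjamini-Hochberg adjusted p from limma, over the 18625 probe sets that passed the filter on low values, is under 0.05.

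Of those 18625 probe sets, 2738 were called (14.7%). The amygdala level exceeded the cortex level in 1516 of them (8.14%) and was below it in 1222 (6.56%). The higher share was 55.4% of the calls. It depends on the scaling, because with each array centred on its median the split was 1093 higher and 1687 lower. The median absolute log2 difference of the calls was 0.49. At a log2 difference of 1 or more, 101 called probe sets were higher in amygdala and 109 lower, and at 2 or more, 8 were higher and 10 lower. The 3 amygdala and the 3 cortex arrays did not overlap for 2705 of the calls, beside 35.1% of all tested probe sets.

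Among the 15 genes with the largest excess in amygdala, 5 encode regulators of transcription. Nr2f2 is an orphan nuclear receptor, also called COUP-TFII. Its probe set of largest difference read 468, 483 and 505 in amygdala, against 64.1, 79.9 and 49.6 in cortex (2.65 ± 0.19, adjusted p = 1.55e-09). A brighter probe set of the same gene read 1204, 1149 and 1188 in amygdala, against 205, 211 and 191 in cortex (2.45 ± 0.09). Both probe sets therefore placed every amygdala array above every cortex array, and Nr2f2 in handled hippocampus, at a mean of 119 on the brighter probe set, was below both regions. Pbx3, a homeodomain partner of Hox and Meis proteins, read 684, 676 and 650 in amygdala, against 151, 172 and 170 in cortex (1.93 ± 0.10). Lmo3, a LIM-only cofactor, read 665, 646 and 624 in amygdala, against 180, 207 and 173 in cortex (1.71 ± 0.17). A brighter Lmo3 probe set gave a smaller difference (1.02 ± 0.07). Grhl1, a grainyhead-like factor (1.69 ± 0.12), and Tshz2, a teashirt zinc finger protein (1.5 ± 0.14), were higher in amygdala as well.

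The most unequal transcript in favour of the amygdala was Ttr, the thyroid hormone and retinol carrier transthyretin, a product of the choroid plexus. It read 558, 495 and 482 in amygdala, against 40.4, 65.2 and 57.9 in cortex (2.92 ± 0.14, adjusted p = 1.51e-12). Penk, the precursor of the enkephalin opioid peptides, read 1525, 1719 and 1548 in amygdala, against 391, 389 and 387 in cortex (1.99 ± 0.09). Trhr, the receptor of thyrotropin-releasing hormone, read 325, 352 and 320 in amygdala, against 72.8, 77.9 and 72.6 in cortex (1.94 ± 0.12). None of these groups of arrays overlapped. The remainder of the 15 genes with the largest excess in amygdala were Mlf1 (1.76 ± 0.22), the presynaptic priming factor Unc13c (1.63 ± 0.16), the calcium-binding proteins Calb2 (1.63 ± 0.17) and Hpcal1 (1.55 ± 0.10), the sulfotransferase Sult1d1 (1.5 ± 0.18), the exchange factor Dock10 (1.48 ± 0.08) and the apolipoprotein Apoc1 (1.46 ± 0.14). Mlf1 and Sult1d1 were dim in cortex, at 5.23 to 20.8 and 15.05 to 24.6.

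At the other end stood Adra1d, the alpha-1D adrenergic receptor, which read 34.6, 22.4 and 19.5 in amygdala, against 195, 188 and 199 in cortex (-2.36 ± 0.13, adjusted p = 9.52e-12). Pou3f1, a POU-domain transcription factor, read 39.9, 24.0 and 27.7 in amygdala, against 184, 144 and 162 in cortex (-1.95 ± 0.14). Reln, the secreted protein reelin that guides cortical layering in development, read 293, 308 and 278 in amygdala, against 1038, 937 and 929 in cortex (-1.67 ± 0.07). In all 3 the highest amygdala array lay far below the lowest cortex array. Eya1, a transcriptional coactivator (-1.75 ± 0.13), Tcerg1l (-1.69 ± 0.17), the ephrin Efna5 (-1.59 ± 0.18) and Bmper, which binds bone morphogenetic proteins (-2.12 ± 0.28), were also lower in amygdala. The other 8 of the 15 genes with the largest deficit were Ogn, Col3a1, Col1a2, Col1a1, Ptgds, Igfbp2, Aldh1a2 and Serpinf1, of which the first 7 belong to the list of meningeal fibroblast genes described further on. All 30 probe sets kept their call in each alternative in which they were tested, including the fits that left out 1 array. With the filter at the 60th percentile of mean level 11 of them were not tested, and with the offset of 1, 1 was not tested.

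**Figure D1:**
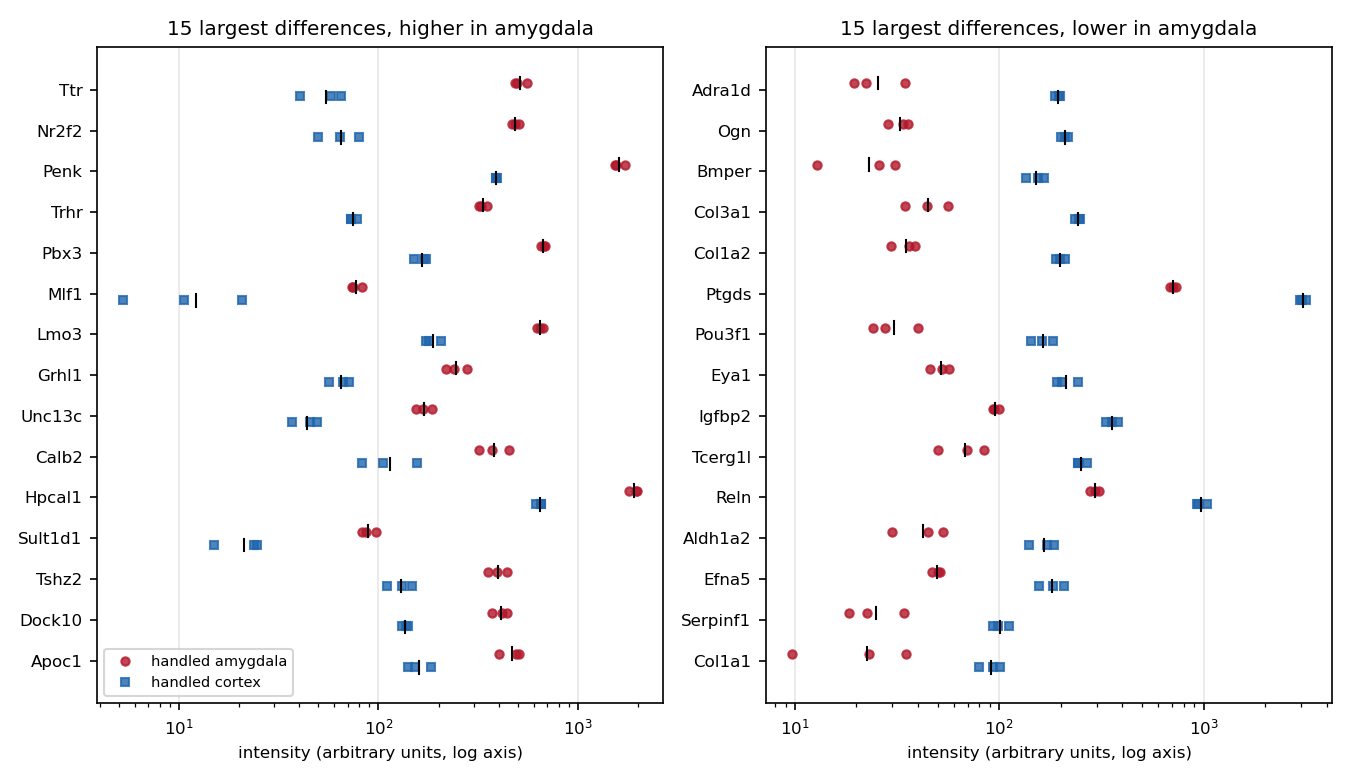
Intensity on each handled array (log axis, arbitrary units) of the 15 genes with the largest called excess in amygdala (left) and the largest called deficit (right), 1 point per array and a black tick at each group mean. No gene has an amygdala array (circles) among its cortex arrays (squares); Ttr reads 482 to 558 in amygdala and 40.4 to 65.2 in cortex.

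Markers of amygdala neurons were called higher in amygdala more often than lower, and many gave no call. Of the 26 amygdala markers with a named probe set, 19 passed the filter, and 8 were called higher in amygdala and 3 lower, with a median log2 difference of 0.38; over the 10256 genes tested, with 1 probe set each, 7.67% were called higher and 7.06% lower, with a median of 0.004. Beside Nr2f2, Pbx3 and Lmo3, the homeodomain factor Meis1 read 156, 168 and 155 in amygdala, against 50.2, 62.9 and 48.5 in cortex (1.34 ± 0.19). Tshz1, a zinc finger factor that in mice marks intercalated amygdala neurons, read 305, 344 and 298 in amygdala, against 168, 136 and 152 in cortex (0.99 ± 0.10). Cyp26b1, the enzyme that degrades retinoic acid, read 1398, 1436 and 1601 in amygdala, against 529, 530 and 604 in cortex (1.39 ± 0.08). These markers separated the regions on every array. The tachykinin precursor Tac3 was called higher too (0.97 ± 0.27, adjusted p = 0.0175), a call lost without 1 of 3 arrays, with adjusted p = 0.108 without the second cortex array. Against this, Meis2 (-0.53 ± 0.11), Zfhx4 (-1.05 ± 0.19) and Foxp1 (-0.74 ± 0.10), 3 further transcription factors of the list, were lower in amygdala, with -0.99, -0.77 and 0.04 on the other Zfhx4 probe sets. Among the markers that did not pass were Prkcd (-0.02), which labels neurons of the central nucleus, and Crh, corticotropin-releasing hormone (-0.53, adjusted p = 0.067). Isl1, Dlk1, Cyp19a1, Otp, Sim1, Ecel1 and Peg10 were below the filter.

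Genes of cortical excitatory neurons and layers were more often lower in amygdala than higher. Of 41 measured, 37 were tested, and 13 were called lower and 6 higher, with a median of -0.21. Nxph3, a neurexin ligand of deep-layer neurons, read 95.05, 93.1 and 96.6 in amygdala, against 238, 245 and 256 in cortex (-1.24 ± 0.16). Crym, a thyroid hormone-binding protein, read 1233, 1285 and 1267 in amygdala, against 2737, 2560 and 2684 in cortex (-1.07 ± 0.05). Fezf2, which in mice specifies layer 5 output neurons, read 164, 162 and 187 in amygdala, against 310, 299 and 269 in cortex (-0.73 ± 0.10). Mef2c (-0.71 ± 0.06), Tle4 (-0.63 ± 0.07), Id2 (-0.60 ± 0.08), Lmo4 (-0.57 ± 0.05) and Lamp5 (-0.47 ± 0.07) were lower as well. The 6 that were higher in amygdala were Tshz2, Nr4a2 (0.99 ± 0.14), Emx2 (0.83 ± 0.17), Bcl11b (0.75 ± 0.07), Etv1 (0.51 ± 0.08) and Ccn2 (0.48 ± 0.11). Slc17a7, the vesicular glutamate transporter of cortical excitatory neurons, did not pass (-0.09, adjusted p = 0.53), nor did Tbr1 (-0.54, adjusted p = 0.11) or Foxp2 (0.09, adjusted p = 0.84). Of 10 tested genes of the claustrum and piriform cortex, structures that adjoin the amygdala, 3 were called higher and 4 lower, with a median of -0.36. Of the 3 higher, Lxn, latexin, read 468, 474 and 477 in amygdala, against 274, 284 and 259 in cortex (0.76 ± 0.08). The 4 lower were Reln, Cdh13 (-0.48 ± 0.12), Synpr (-0.34 ± 0.06) and Cux2 (-0.64 ± 0.19). The Cux2 call had adjusted p = 0.1 without the second cortex array. The 11 measured genes of this list summed to 2945 to 3100 on the amygdala arrays and 3903 to 3975 on the cortex arrays.

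Transcripts for making and loading GABA were higher in amygdala in the handled arrays. Gad1, a GABA-synthesizing enzyme, read 2370, 2544 and 2552 in amygdala, against 1972, 1967 and 1933 in cortex (0.34 ± 0.05). Slc32a1, the vesicular GABA transporter, read 242, 262 and 256 in amygdala, against 162, 168 and 178 in cortex (0.54 ± 0.11). Gad2, the other synthesizing enzyme, read 325, 290 and 368 in amygdala, against 227, 198 and 209 in cortex (0.59 ± 0.18, adjusted p = 0.029). The 2 sets of arrays did not overlap for any of these genes, but the Gad2 call was lost without 1 of 4 arrays, with adjusted p = 0.121 without the third amygdala array, and another Gad1 probe set gave -0.04. With Prox1 (0.36 ± 0.09), these were the 4 called higher of 13 tested genes of GABA handling and subpallial identity, against 2 called lower, Maf (-0.42 ± 0.11) and Synpr (-0.34 ± 0.06). The Maf call was lost without the first amygdala array, with adjusted p = 0.061, and its other probe sets gave -0.48 and 0.04. In the stress arrays Slc32a1 was again called higher (0.43, adjusted p = 0.0072). Gad1 (0.14, adjusted p = 0.059) did not pass there, and Gad2 lay below 0 without a call (-0.40, adjusted p = 0.125).

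Genes of striatal projection neurons, which central amygdala neurons share in part, were called higher in 10 and lower in 5 of 26 tested, with a median of 0.18. Adora2a, the adenosine receptor of enkephalin neurons, read 80.4, 115 and 85.6 in amygdala, against 13.1, 39.0 and 25.7 in cortex (1.42 ± 0.28). Rxrg, a retinoid X receptor, read 328, 332 and 344 in amygdala, against 167, 180 and 187 in cortex (0.86 ± 0.12). Ppp1r1b, an inhibitor of protein phosphatase that dopamine controls, read 379, 442 and 419 in amygdala, against 237, 274 and 241 in cortex (0.69 ± 0.11). All 3 were higher on every amygdala array, but another Rxrg probe set gave -0.09. Rasd2 (0.52 ± 0.08), Pde10a (0.44 ± 0.09) and Pde1b (0.39 ± 0.08) were higher too, with -0.09 on another Rasd2 probe set, while Drd2 (0.16, adjusted p = 0.79) and Rgs9 (0.13, adjusted p = 0.79) did not pass. The peptide precursors of direct-pathway striatal neurons went the other way. Tac1, which encodes substance P, read 36.2, 32.5 and 14.6 in amygdala, against 103, 92.6 and 107 in cortex (-1.45 ± 0.30). Pdyn, which encodes the dynorphins, read 113, 94.8 and 81.6 in amygdala, against 169, 190 and 190 in cortex (-0.83 ± 0.16).

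Interneuron subtype genes were called lower in 9 and higher in 3 of 19 tested. Vip, the vasoactive intestinal peptide of cortical interneurons, read 323, 289 and 366 in amygdala, against 536, 506 and 565 in cortex (-0.69 ± 0.10). Ndnf, a marker of superficial interneurons, read 28.7, 37.3 and 54.5 in amygdala, against 109, 123 and 131 in cortex (-1.31 ± 0.18). Pvalb, parvalbumin, read 196, 156 and 157 in amygdala, against 219, 228 and 259 in cortex (-0.44 ± 0.11), a call lost without the third cortex array, with adjusted p = 0.052. These groups of arrays did not overlap. Calb2, calretinin, ran the other way, with 372, 450 and 319 in amygdala, against 82.5, 105 and 155 in cortex, and Calb1, calbindin, was higher by 0.28 ± 0.06. Sst, somatostatin (0.01, adjusted p = 0.95), and Npy, neuropeptide Y (0.08, adjusted p = 0.60), did not pass.

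Markers of other regions that could enter an amygdala block were measured in the same way. Of 20 hypothalamus markers with a named probe set, 15 were below the filter, among them Avp, Oxt, Trh, Pomc and Gnrh1, and the 2 called, Hap1 (0.32 ± 0.09) and Resp18 (0.30 ± 0.06), were higher in amygdala. The Hap1 call was lost without 1 of 4 arrays, with adjusted p = 0.0975 without the second amygdala array. The summed intensity of the 20 was 2096 to 2351 on the amygdala arrays and 1688 to 1857 on the cortex arrays. Most of it came from the same Hap1 (means of 827 in amygdala and 660 in cortex) and Resp18 (1068 and 862). Of 14 tested thalamus and habenula markers only Calb2 was called higher, and Tac1 and Zic4 (-1.19 ± 0.22) were lower. Of 16 tested hippocampus markers 4 were called in each direction. Nnat, neuronatin, was higher in amygdala at 5087, 5163 and 5003, against 2802, 2640 and 2658 in cortex (0.91 ± 0.06). In handled hippocampus Nnat had a mean of 2425, below both regions. Prox1 (0.36 ± 0.09), C1ql3 (0.38 ± 0.08) and Calb1 (0.28 ± 0.06) were the others called higher. Trpc6 (-0.93 ± 0.14), Htr1a (-0.88 ± 0.15), Neurod1 (-0.87 ± 0.13) and Grp (-0.46 ± 0.14) were called lower. Among all of these, Prox1, Trpc6, Htr1a and Neurod1 had their highest handled mean in hippocampus. The part of neighbouring tissue in the results was not tested.

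**Figure D2:**
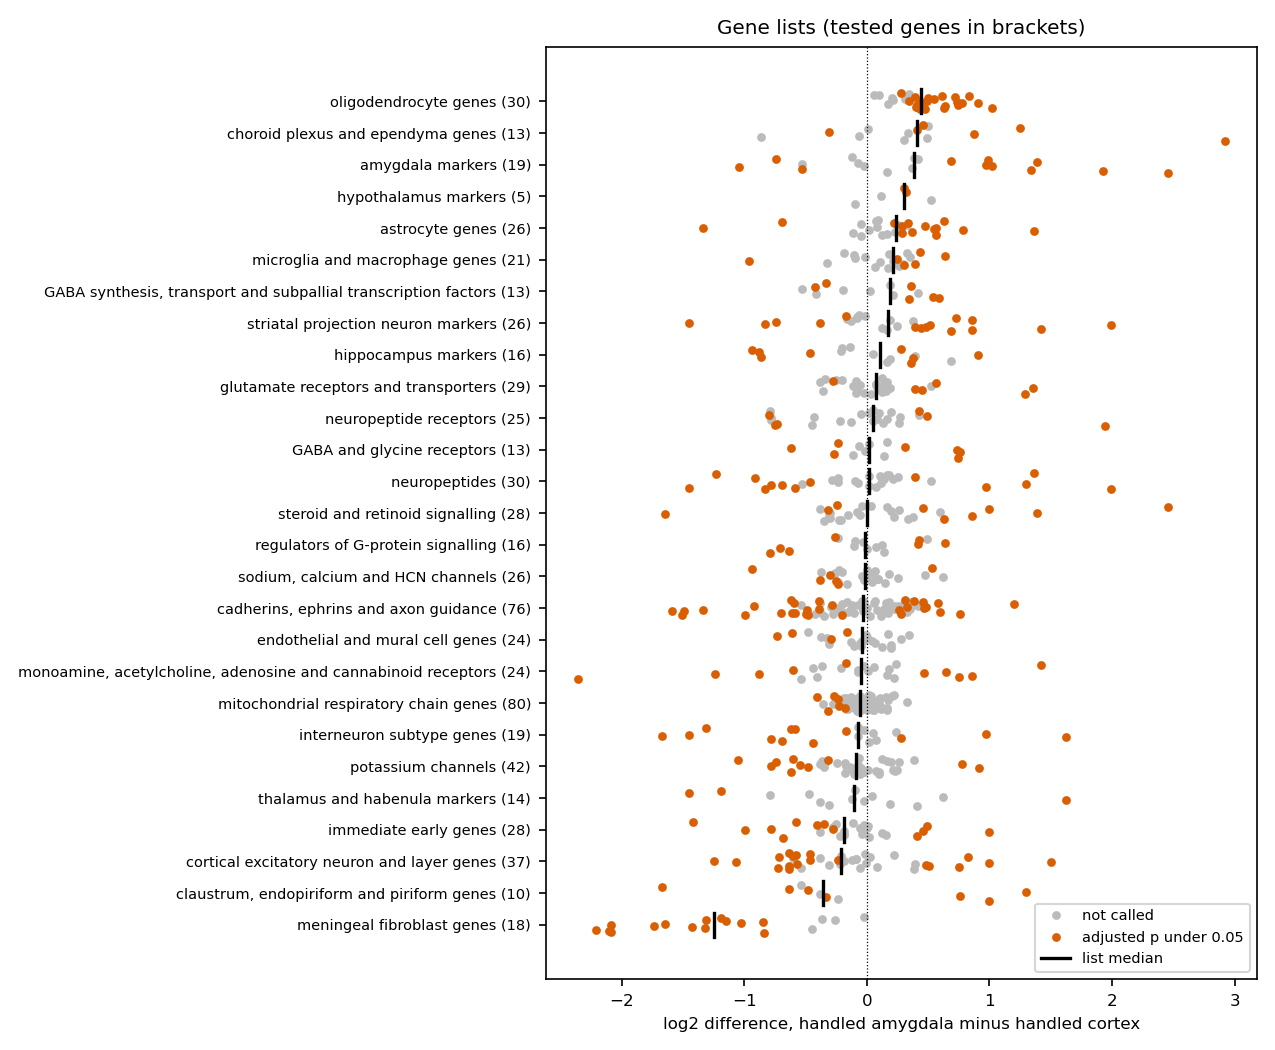
Log2 difference, handled amygdala minus handled cortex, of each tested gene in 27 lists, 1 point per gene, orange where called (adjusted p under 0.05) and grey where not, with a black bar at the list median. The oligodendrocyte list lies wholly to the right of 0 (median 0.44) and the meningeal fibroblast list wholly to the left (median -1.25); most other lists straddle 0.

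Neuropeptide precursors were called in both directions, 5 higher and 8 lower among 30 tested, with 13 more below the filter. Beside Penk and Tac3, the higher set held Agt, the angiotensin precursor, which astrocytes make, at 472, 474 and 407 in amygdala, against 172, 190 and 138 in cortex (1.36 ± 0.10). It also held Nts, neurotensin, at 66.4, 78.2 and 87.5 in amygdala, against 27.3, 31.98 and 9.86 in cortex (1.30 ± 0.19), and the granin Scg2 (0.39 ± 0.07). In each of these the lowest amygdala array exceeded the highest cortex array. The lower set was led by Tac1 and by Calca, the calcitonin gene-related peptide gene, at 13.0, 17.0 and 20.7 in amygdala, against 48.6, 83.5 and 55.1 in cortex (-1.23 ± 0.21). Cck, cholecystokinin, read 2099, 2179 and 2298 in amygdala, against 4102, 3401 and 3894 in cortex (-0.79 ± 0.08). Pdyn, Vip, Nppa (-0.91 ± 0.23), Grp (-0.46 ± 0.14) and Pnoc (-0.59 ± 0.19) completed it, but the Grp call had adjusted p = 0.148 without the third cortex array and the Pnoc call adjusted p = 0.2 without the second amygdala array. Pnoc was also a call in which the arrays of the 2 regions overlapped. Penk and Pdyn, both opioid precursors, thus differed in opposite directions between the regions.

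Receptors for peptides were called higher in 3 and lower in 3 of 25 tested, while 28 were below the filter. These 28 included the opioid receptors Oprm1, Oprd1 and Oprk1 and the oxytocin receptor Oxtr. Oprk1 was thus not tested, but it read 76.7, 99.9 and 57.5 in amygdala, against 2.54, 8.73 and 15.5 in cortex. Its other probe sets gave 1.15 and 0.39, without a call. Its means were 87.8 in stress amygdala, 22.3 in stress cortex and 4.74 in handled hippocampus, whose arrays also enter the filter. Of the 3 called higher, Trhr was followed by Ramp2, a partner of the calcitonin receptor-like receptor (0.42 ± 0.11), and the orexin receptor Hcrtr1 (0.49 ± 0.16, adjusted p = 0.0423). The Hcrtr1 call was lost without any 1 of the 6 arrays, with adjusted p = 0.151 without the third cortex array. Npy1r, a neuropeptide Y receptor, read 199, 226 and 201 in amygdala, against 348, 364 and 371 in cortex (-0.75 ± 0.09). Sstr1, a somatostatin receptor, read 211 to 268 in amygdala, against 357 to 439 in cortex (-0.73 ± 0.11). The peptides of these receptors, Npy and Sst, showed no called difference.

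Receptors for monoamines, acetylcholine, adenosine and cannabinoids were called higher in 5 and lower in 5 of 24 tested, with 25 below the filter. Drd1, a dopamine receptor that couples to cyclic AMP synthesis, read 263, 302 and 297 in amygdala, against 161, 142 and 150 in cortex (0.86 ± 0.14). Among adrenergic receptors, Adra2c was higher in amygdala (69.4, 75.8 and 81.2, against 44.8, 28.8 and 43.0 in cortex, 0.75 ± 0.16) where Adra1d was lower. Serotonin receptors were likewise divided. Htr2c read 802, 838 and 877 in amygdala, against 599, 595 and 609 in cortex (0.47 ± 0.09), although another probe set gave -0.22, and Htr4 was higher by 0.64 ± 0.18, with adjusted p = 0.0866 without the second cortex array and -0.44 on another probe set. Htr2a, the cortical target of hallucinogens, read 39.8, 40.5 and 44.7 in amygdala, against 119, 146 and 99.2 in cortex (-1.24 ± 0.20), with -0.39, -0.05 and 0.02 on its other probe sets. Htr1a, an inhibitory receptor, read 19.2, 22.6 and 27.7 in amygdala, against 59.6, 44.4 and 64.6 in cortex (-0.88 ± 0.15). The muscarinic receptor Chrm3 was lower too (-0.60 ± 0.11).

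Receptors for the main fast transmitters differed mostly by subunit. Of 29 tested genes for glutamate receptors and transporters, 5 were called higher and 1, the scaffold Homer1, lower (-0.27 ± 0.08), with adjusted p = 0.0858 without the second amygdala array. Gria1, an AMPA receptor subunit, read 974, 908 and 1313 in amygdala, against 390, 441 and 430 in cortex (1.29 ± 0.12). Grin3a, an NMDA receptor subunit that lowers calcium entry, read 214, 210 and 265 in amygdala, against 90.4, 76.6 and 72.9 in cortex (1.35 ± 0.17). Both were higher on every amygdala array, while Gria2 (0.04), Grin1 (-0.08), Grin2b (0.10) and Grm5 (0.07) did not pass. Among 13 tested GABA and glycine receptor genes, 4 were called higher and 3 lower. Gabra2 read 839, 889 and 1125 in amygdala, against 543, 551 and 580 in cortex (0.74 ± 0.13), Gabrb1 540, 587 and 563 in amygdala, against 389, 416 and 211 in cortex (0.76 ± 0.16), and Gabrg1 245, 212 and 338 in amygdala, against 130, 161 and 159 in cortex (0.74 ± 0.19). The Gabrg1 call was lost without the third amygdala array (adjusted p = 0.0744) or the first cortex array. Gabrd, the delta subunit of extrasynaptic receptors, read 219, 179 and 150 in amygdala, against 280, 296 and 279 in cortex (-0.61 ± 0.11). Gabbr1, a subunit of the GABA-B receptor, was higher on its brightest probe set (0.31 ± 0.06), while another of its probe sets was called lower (-0.44). In the stress arrays Gabra2 (0.17, adjusted p = 0.40) and Gabrg1 (-0.11, adjusted p = 0.73) did not pass. Gabrb1 (0.46), Gabrd (-0.36) and Gabbr1 on its brightest probe set (0.28) kept their calls there.

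**Figure D3:**
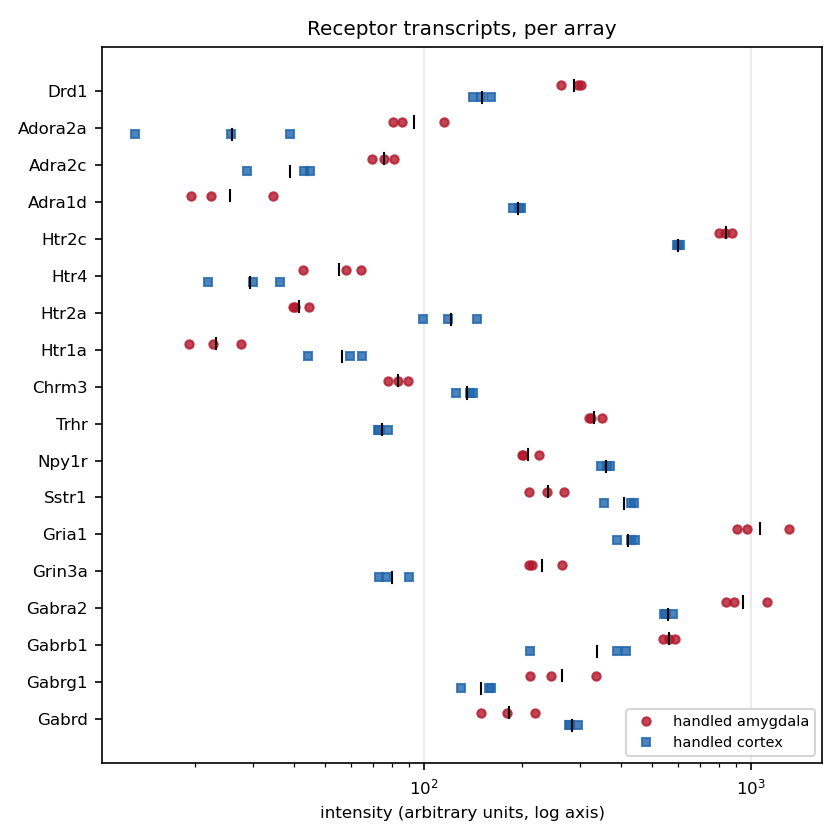
Intensity on each handled array (log axis, arbitrary units) of 18 called receptor transcripts, with circles for amygdala, squares for cortex and a black tick at each group mean. Trhr (320 to 352 in amygdala, 72.6 to 77.9 in cortex) and Adra1d (19.5 to 34.6 in amygdala, 188 to 199 in cortex) are the most widely separated in each direction.

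Ion channel transcripts were called lower more often than higher. Of 42 tested potassium channel genes, 8 were called lower and 2 higher, with a median of -0.09. Of 26 sodium, calcium, HCN and TRP channel genes 5 were called lower and 1 higher, with a median of -0.01. Over all genes tested 7.06% were called lower and 7.67% higher. In fits without 1 array, 6 to 8 potassium channel genes and 3 to 4 of the other channel genes were called lower. Kcns3, a modifying subunit of delayed rectifier channels, read 75.7, 49.3 and 67.2 in amygdala, against 169, 133 and 144 in cortex (-1.05 ± 0.14). Kcnc2, a fast-spiking Kv3 channel, read 399, 409 and 440 in amygdala, against 664, 614 and 660 in cortex (-0.62 ± 0.08), although 2 of its 5 other probe sets gave small differences above 0. Kcnmb4 (-0.74 ± 0.12), Kcnv1 (-0.60 ± 0.09) and the cation channel Trpc6 (-0.93 ± 0.14) were lower too. Kcnip2, which escorts the Kv4 channels of the A-type current, was the clearest exception, at 468, 505 and 468 in amygdala, against 262, 240 and 242 in cortex (0.91 ± 0.08). Regulators of G-protein signalling had 3 called higher and 4 lower of 16. Rgs2 (-0.79 ± 0.12) and Rgs4 (-0.64 ± 0.08) were lower, and Rgs10 (0.42 ± 0.07) and Rgs17 (0.42 ± 0.08) higher.

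Steroid and retinoid signalling genes had 6 called higher and 3 lower of 28 tested. The retinoid genes among them included Cyp26b1 and Rxrg, higher in amygdala, and Aldh1a2, which makes retinoic acid, lower at 29.8, 53.2 and 44.6 in amygdala, against 186, 172 and 139 in cortex (-1.65 ± 0.20). Aldh1a2 is also a meningeal gene, and it moved with the other meningeal genes described below. Hsd11b1, the enzyme that regenerates active glucocorticoid, read 476, 529 and 514 in amygdala, against 320, 319 and 325 in cortex (0.63 ± 0.08). The glucocorticoid receptor Nr3c1 (-0.22, adjusted p = 0.10) and the mineralocorticoid receptor Nr3c2 (-0.21, adjusted p = 0.064) did not pass. The estrogen receptors Esr1 and Esr2 were below the filter.

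Cadherins, ephrins and axon guidance genes, which set regional wiring during development, had 12 called higher and 18 lower of 76 tested. The share called was 39.5%, beside 14.7% of all genes tested. The median was -0.03, and with median centring the counts were 8 higher and 20 lower. Cdh12 read 22.2, 18.6 and 22.8 in amygdala, against 85.0, 96.0 and 87.6 in cortex (-1.51 ± 0.17). Ephb6, a kinase-inactive ephrin receptor, read 112, 109 and 98.8 in amygdala, against 326, 338 and 323 in cortex (-1.49 ± 0.13). Sema3c, a secreted semaphorin, read 146, 136 and 108 in amygdala, against 335, 372 and 344 in cortex (-1.34 ± 0.10). All 3 were lower on every amygdala array, as were Cdh11 (-0.996 ± 0.08), Robo1 (-0.92 ± 0.16), Pcdh17 (-0.70 ± 0.07) and Epha4 (-0.58 ± 0.06). In the other direction Lsamp, the limbic system-associated membrane protein, read 981, 1079 and 1277 in amygdala, against 469, 450 and 500 in cortex (1.20 ± 0.10). Cdh22 read 3308, 3146 and 3676 in amygdala, against 2103, 1970 and 1888 in cortex (0.76 ± 0.09), and Epha5 (0.60 ± 0.12) and Ncam1 (0.58 ± 0.11) were higher as well.

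Immediate early genes, which neurons switch on within minutes of activity, were called lower in 8 and higher in 4 of 28 tested. Inhba, an activin subunit, read 23.8, 53.5 and 46.2 in amygdala, against 138, 122 and 139 in cortex (-1.42 ± 0.18). Ier5 read 178, 212 and 199 in amygdala, against 388, 414 and 416 in cortex (-0.995 ± 0.10), although 1 of its 2 other probe sets gave 0.24. Dusp1, a phosphatase of MAP kinases, read 140, 160 and 144 in amygdala, against 258, 294 and 248 in cortex (-0.78 ± 0.14). Fos (-0.68 ± 0.18) was lower too, a call lost without the second amygdala array, with adjusted p = 0.055. Nr4a2, Nr4a3 (0.46 ± 0.09) and Bdnf (0.49 ± 0.11) were higher in amygdala, although another Bdnf probe set gave -0.10. Another Inhba probe set gave 0.02. Egr1 (-0.18, adjusted p = 0.12) and Arc (0.13, adjusted p = 0.63) did not pass.

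Genes of oligodendrocytes, the cells that wrap axons in myelin, were higher in amygdala as a group. Of 33 measured, 30 were tested, and 23 were called higher and 0 lower, where 7.67% of all genes tested were called higher, and 0 of the other 7 lay below 0. The median was 0.44. In fits without 1 array, 21 or 22 were called higher, and with median centring 21. Mobp, a protein of compact myelin, read 3422, 3278 and 3524 in amygdala, against 1682, 1694 and 1626 in cortex (1.02 ± 0.07). Bcas1, a gene of myelinating oligodendrocytes, read 1213, 1398 and 1262 in amygdala, against 711, 688 and 646 in cortex (0.90 ± 0.06). Myrf, the regulator that starts the myelin program, read 234, 253 and 226 in amygdala, against 106, 144 and 130 in cortex (0.83 ± 0.13). Sox10, a SOX-family factor that marks the whole lineage, read 127, 117 and 125 in amygdala, against 70.4, 56.1 and 77.5 in cortex (0.73 ± 0.14). Each amygdala array was above each cortex array in these 4 genes. Mbp, the main structural protein of compact myelin, read 7301, 7381 and 7926 in amygdala, against 5798, 5471 and 5473 in cortex (0.43 ± 0.07), and Mog (0.48 ± 0.09), Mag (0.63 ± 0.10), Ermn (0.78 ± 0.09) and Car2 (0.72 ± 0.07) were higher as well. Pdgfra, the receptor of oligodendrocyte precursors, differed by 0.28 ± 0.08, with adjusted p = 0.104 without the second amygdala array. The summed intensity of the 33 genes was 26478 to 27474 on the amygdala arrays and 18460 to 19082 on the cortex arrays.

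Mobp had the largest difference in the group, and its promoter is shown because SOX-family factors such as Sox10, higher in the same arrays, bind the letters CTTTGT. The window is the 250 bases before the annotated start of Mobp on the forward strand, chr8:128746982-128747231 of the rat build GRCr8, from RefSeq. Capitals mark each CTTTGT, which was searched on both strands.
Mobp: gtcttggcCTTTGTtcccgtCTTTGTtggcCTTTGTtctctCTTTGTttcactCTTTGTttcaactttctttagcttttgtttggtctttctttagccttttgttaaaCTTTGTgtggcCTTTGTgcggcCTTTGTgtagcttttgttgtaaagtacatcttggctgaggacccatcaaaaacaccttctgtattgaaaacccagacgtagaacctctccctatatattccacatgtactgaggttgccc
It holds 8 matches forward and 0 in reverse, with no overlap, in a stretch that repeats similar letters. Of 33469 windows of this length, 16.3% held at least 1 match and 2 held 8 or more. Of the 30 tested oligodendrocyte genes 21 had a window, and 6 of these, or 28.6%, held a match, the others being Apod, Opalin, Cnp, Mag and Mbp. A match describes the letters only, and no binding was measured.

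Astrocyte genes were called higher in 12 and lower in 2 of 26 tested, with a median of 0.24. Aldoc, an astrocyte form of the glycolytic enzyme aldolase, read 3878, 4043 and 4114 in amygdala, against 2859, 2639 and 2703 in cortex (0.55 ± 0.06). Fgfr3, a growth factor receptor, read 459, 501 and 490 in amygdala, against 246, 261 and 318 in cortex (0.79 ± 0.11). S100b (0.37 ± 0.05) and Sparcl1 (0.47 ± 0.06) were higher as well. The intermediate filament gene Gfap (-0.05, adjusted p = 0.65), the water channel Aqp4 (0.12, adjusted p = 0.26) and glutamine synthetase Glul (0.02, adjusted p = 0.90) did not pass on their brightest probe sets. Of the other Aqp4 probe sets, 1 was called higher (0.63) and 1 gave -0.03. Lcat, a cholesterol-esterifying enzyme, read 56.7, 80.1 and 70.5 in amygdala, against 225, 173 and 197 in cortex (-1.33 ± 0.14), and Id3 was lower by -0.70 ± 0.10. The list thus held differences in both directions beyond the spread between arrays. Of 21 tested genes of microglia and macrophages 5 were called higher, between 0.24 and 0.63, and 1, the antigen-presentation gene Cd74, lower (59.9, 62.6 and 50.1 in amygdala, against 113, 115 and 157 in cortex, -0.96 ± 0.17). With median centring 2 microglial genes were called higher and 1 lower, and without 1 array 2 to 4 were called higher.

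Genes of meningeal fibroblasts formed the group with the largest shift. Of 27 measured, 18 were tested, and 14 were called lower in amygdala and 0 higher, where 7.06% of all genes tested were called lower, with all 18 below 0 and a median of -1.25. The extracellular matrix genes Ogn (35.6, 28.7 and 33.9 in amygdala, against 202, 210 and 217 in cortex, -2.21 ± 0.16) and Col3a1 (34.6, 44.2 and 56.0 in amygdala, against 246, 248 and 234 in cortex, -2.10 ± 0.16) showed it most. Ptgds, which makes prostaglandin D2, read 683, 734 and 709 in amygdala, against 3178, 2971 and 3019 in cortex (-2.08 ± 0.06, adjusted p = 6.18e-17). Igf2, an insulin-like growth factor, read 161, 152 and 141 in amygdala, against 419, 414 and 465 in cortex (-1.42 ± 0.12), although 3 other probe sets gave between -0.14 and 0.28. Col1a2 (-2.08 ± 0.16), Igfbp2 (-1.74 ± 0.12), Dcn (-1.32 ± 0.22), Gjb2 (-1.31 ± 0.15) and the transporter Slc6a20a (-1.19 ± 0.16) were lower too. The 27 genes summed to 2005 to 2076 on the amygdala arrays and 6349 to 6616 on the cortex arrays. With a filter at the 60th percentile of mean level, 6 were called lower.

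Genes of the choroid plexus and of ciliated ependyma, which line the ventricles, ran the other way, with 5 called higher and 1 lower of 13 tested and a median of 0.41. Dynlrb2, a dynein light chain of cilia, read 168, 195 and 156 in amygdala, against 61.8, 58.2 and 70.3 in cortex (1.25 ± 0.13). Foxj1, the regulator of motile cilia, read 75.5, 77.1 and 48.9 in amygdala, against 26.0, 36.2 and 25.2 in cortex (0.87 ± 0.26), a call lost without 1 of 4 arrays, with adjusted p up to 0.1. With Ttr, the others called higher were Pltp (0.45 ± 0.11) and Rarres2 (0.41 ± 0.12). The Rarres2 call was lost without 1 of 5 arrays, with adjusted p = 0.115 at most. Folr1 (0.49, adjusted p = 0.13) and Sostdc1 (0.31, adjusted p = 0.32) gave no call. Aqp1 lay below 0 without a call (-0.86, adjusted p = 0.07), with -1.02 on another probe set. Kl, Otx2, Kcnj13, Cldn2 and Tmem72 were below the filter. Enpp2 was lower (-0.31 ± 0.08). Endothelial and mural genes had 0 called higher and 4 lower of 24 tested. The calls of Myl9, Vtn and Bsg among the 4 were each lost without 1 array, with adjusted p = 0.11, 0.141 and 0.202 at most, and Cldn5 (0.12, adjusted p = 0.55) and Pecam1 (0.19, adjusted p = 0.65), both of endothelial junctions, did not pass. Hbb, a hemoglobin gene of blood cells, read 2031, 2258 and 2104 in amygdala, against 3264, 3055 and 3295 in cortex (-0.59 ± 0.07). The part of meninges, choroid plexus or blood in the other differences was not tested.

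Control probe sets at both ends of 3 transcripts gave a measure of RNA quality. The log2 difference between the 3′ and 5′ control probe sets of beta-actin was 2.07 ± 0.08 in amygdala and 1.66 ± 0.05 in cortex (SD, n = 3), and that of GAPDH 0.45 ± 0.04 in amygdala and 0.29 ± 0.04 in cortex. That of hexokinase was 0.83 ± 0.08 in amygdala and 1.11 ± 0.09 in cortex, so the 3 transcripts did not shift one way. Mitochondrial respiratory chain genes, a broad set of housekeeping transcripts, had 0 called higher and 6 called lower of 80 tested, with a median of -0.06. The share called lower, 7.5%, was near the 7.06% of all genes tested, of which 7.67% were called higher. With median centring 14 were called lower. The part of RNA quality in the results was not tested.

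The same contrast was taken in stress arrays. It shares no array with the handled contrast, but in both the filter and the estimate of spread came from all 18 arrays. The stress contrast gave 3686 calls (19.8%), of which 1802 were higher in amygdala (9.68%) and 1884 lower (10.1%). Without the first stress cortex array there were 2372. Of the 1516 probe sets called higher in handled amygdala, 92.7% were above 0 in the stress arrays and 860 (56.7%) were called higher there. Of the 1222 called lower, 95.8% were below 0 and 816 (66.8%) were called lower. Over all tested probe sets 70.4% had the same direction in both. Calls in the opposite direction in stress arrays numbered 10 among the higher ones and 2 among the lower ones. Among the 30 genes with the largest differences, all were called in the same direction in stress arrays except Aldh1a2 (-0.53, adjusted p = 0.059). For Col1a1 this holds for the probe set of larger difference and not for its other one, counted in the meningeal list. That one differed by 0.14 in stress arrays (adjusted p = 0.72) and by -0.84 in handled arrays, a call lost without 1 of 2 arrays, with adjusted p = 0.0764 without the first amygdala array. Nr2f2 was 1180 ± 43.8 in stress amygdala and 178 ± 4.15 in stress cortex on its brighter probe set (SD, n = 3), and Penk differed by 2.25, Pbx3 by 1.72, Adra1d by -1.91 and Reln by -1.997. Of the 30 oligodendrocyte genes, 24 were called higher in stress amygdala and 22 in both comparisons.

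The difference between regions itself differed between stress and handled arrays for 24 of 18625 probe sets (0.129%), 9 more positive after stress (0.0483%) and 15 more negative (0.0805%). At an unadjusted p under 0.05 there were 1818. Meningeal genes made up part of the first group. Ptgds read 666, 734 and 678 in stress amygdala and 1448, 1370 and 1367 in stress cortex, so that its deficit was -0.99 there, against -2.08 in handled arrays (interaction 1.09 ± 0.08, adjusted p = 8.17e-08). Igf2 read 135, 156 and 153 in stress amygdala and 110, 175 and 140 in stress cortex, and its regional difference was 0.08 in stress arrays, against -1.42 in handled arrays (1.499 ± 0.18). Its stress and handled amygdala arrays overlapped, and its handled cortex arrays were the high ones. Col1a2 (1.46 ± 0.22) and Col3a1 (1.28 ± 0.23) also had overlapping amygdala arrays and high handled cortex arrays. The handled cortex arrays of Igfbp2 (1.05 ± 0.18) were likewise the high ones. Its stress amygdala arrays, at 76.6 to 82.7, lay below its handled ones, at 92.9 to 99.9. Unlike Igf2, these genes kept a called deficit in stress arrays, of -0.63 for Col1a2, -0.82 for Col3a1 and -0.69 for Igfbp2. The 27 meningeal genes summed to 2077 to 2176 in stress amygdala and 3008 to 3076 in stress cortex, and 7 of 18 were called lower and 2 higher between the stressed regions.

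Among the probe sets with a more negative interaction, Gria1 and Ahi1 were highest in the handled amygdala arrays. Gria1 read 526, 581 and 432 in stress amygdala and 485, 382 and 499 in stress cortex, a regional difference of 0.17, against 1.29 in handled arrays (-1.13 ± 0.18, adjusted p = 0.0052). Ahi1, a protein of the primary cilium base, read 170, 142 and 152 in stress amygdala and 144, 148 and 133 in stress cortex, and 370, 330 and 413 in handled amygdala and 165, 135 and 137 in handled cortex (-1.15 ± 0.17, adjusted p = 0.0023). Lsamp differed by 0.24 between the stressed regions, against 1.20 between the handled ones (-0.96 ± 0.13). For these 3 genes a large part of the handled regional difference was thus not seen in the stress arrays. In the opposite sense Cyp26b1, which differed by 2.07 in stress arrays against 1.39 in handled arrays (0.68 ± 0.11), and Gh1, growth hormone, by 2.16 against 0.87 (1.28 ± 0.24), had a wider regional gap after stress. For Cyp26b1 the handled cortex arrays were the high ones, at 529 to 604, against 292 to 337 in stress cortex. Its stress amygdala arrays, at 1302 to 1371, lay below its handled ones, at 1398 to 1601. The count of 24 was 45 without the third stress amygdala array. It was 15 without the third handled amygdala array, 14 without the first or the second handled cortex array, 11 without the third, and 14 without the second or the third stress cortex array. The Col3a1 and Gh1 interactions were each lost without 1 of 6 arrays, with adjusted p = 0.0755 and 0.129 at most.

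**Figure D4:**
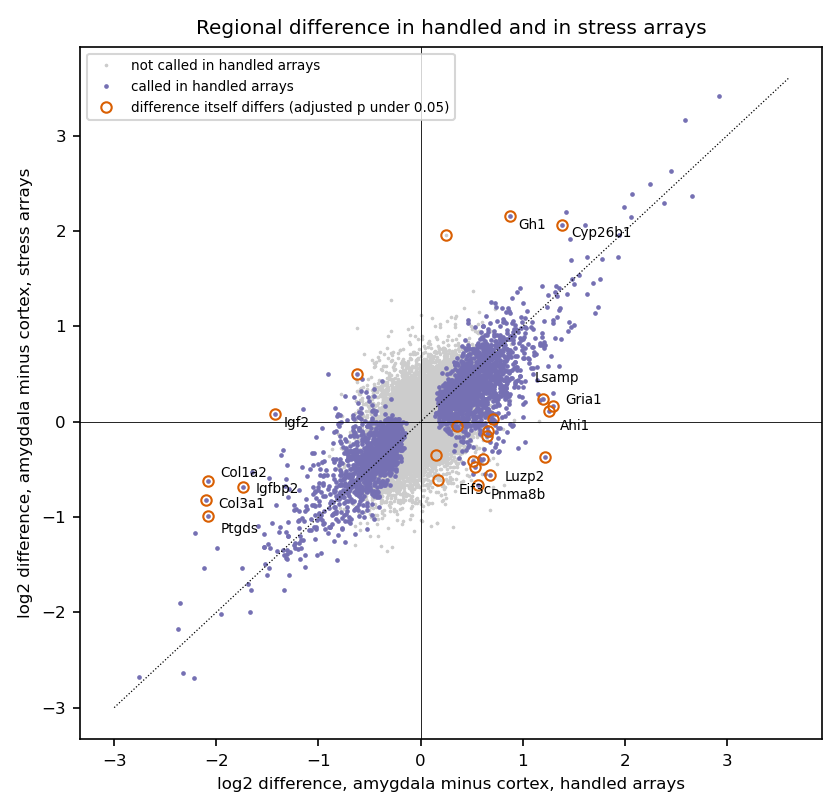
Log2 difference, amygdala minus cortex, of each tested probe set in handled arrays (horizontal) and in stress arrays (vertical); purple points were called in handled arrays, open circles mark the 24 probe sets whose regional difference differed between treatments, and the dotted line marks equality. Igf2 sits at -1.42 and 0.08 and Gria1 at 1.29 and 0.17, away from the line, while most called points share a sign on both axes.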

How the data were processed

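The authors deposited 1 intensity per probe set and array on a linear scale; the summarisation software was not stated. Judged by the values, every array had been scaled to a common mean (150.04 or 150.05 after trimming 2% per tail), which hides a shift shared by most bright transcripts. Only this table was used; it names no batch, so none could be tested. The number of arrays limits the precision.

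Of 31099 probe sets, 57 controls were left out, and 18625 of 31042 at or above the 40th percentile of mean level were tested. Names came from the platform annotation updated through a RefSeq table: 20832 probe sets had 1 symbol, 436 several and 9831 none, and only the first kind was named. log2(intensity + 16) was fitted over all 18 arrays in 6 groups with limma 3.58.1 in R 4.3.3, with a variance trend (12 residual and 10.2 prior degrees of freedom), two-sided, with Benjamini-Hochberg adjustment and a threshold of 0.05. Errors beside log2 differences are standard errors. The fit was tested on simulated data.

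Named genes were up to 15 per direction with the largest called, non-overlapping difference, members of 28 gene lists (1 probe set per gene, the brightest) and up to 5 per direction of the interaction. Other interaction calls with 1 symbol are named among the flagged results. The comparison and the lists were chosen with earlier results of these data known. Alternatives were the offset, the filter, the scaling, the trend, the arrays fitted, the replicate number as a block and leaving out each array.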

Additional observations from a re-analysis of the deposited data

Results flagged for a closer look

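The regional difference differed between stress and handled arrays, by limma's interaction test with Benjamini-Hochberg adjustment, for 24 probe sets. Given as stress minus handled differences on the log2 scale, the named ones with a more positive value were Igf2 (1.499), Col1a2 (1.46), Col3a1 (1.28), Gh1 (1.28), Ptgds (1.09), Igfbp2 (1.05) and Cyp26b1 (0.68). Those with a more negative value were led by Luzp2 (-1.24), Pnma8b (-1.22), Ahi1 (-1.15), Gria1 (-1.13), Eif3c (-1.01) and Lsamp (-0.96). Hpcal4 (-0.93), Gria3 (-0.80), Ywhab (-0.78, adjusted p = 8.9e-05), Map2 (-0.76), Pals2 (-0.50) and Eid1 (-0.41) completed them. Luzp2 differed between regions by -0.56 in stress arrays and 0.68 in handled arrays, Pnma8b by -0.66 in stress arrays and 0.56 in handled arrays, and Eif3c by -0.47 in stress arrays and 0.53 in handled arrays, so that their sign turned. Another probe set of Luzp2 and of Eif3c gave a handled difference below 0, of -0.18 and -0.03. The interaction shares arrays with both regional comparisons. The part of meningeal tissue, whose genes are summed above, was not tested.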

How the results depend on the processing

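The count of called probe sets between handled amygdala and handled cortex, 2738, lay between 2419 and 3571 under the other offsets, filters, scalings, variance model and sets of arrays, and between 2034 and 2169 in fits without 1 array. The calls higher in amygdala numbered 1115 to 1184 without 1 array. In stress arrays the count of 3686 became 2372 without cortex stress 1, the lowest of the fits without 1 array, whose highest was 3609; the calls higher there numbered 1159 to 1676 and those lower 1213 to 1933. With median centring the stress split was 1006 higher and 2899 lower. The interaction count of 24 was 15 with no filter, 9 with no variance trend, and 11 to 45 without 1 array, with the lowest value without cortex handled 3 and the highest without amygdala stress 3; the cause was not tested. Of 215 further list genes that were called, 156 kept their call in every alternative in which they were tested and 59 lost it in at least 1. Of the 10 interaction genes chosen by size, 4 kept it (Igf2, Ptgds, Col1a2 and Ahi1), Gria1 lost it with no variance trend alone, and Pnma8b, Luzp2, Col3a1, Gh1 and Eif3c lost it without 1 array. No difference of these called genes changed sign, while named differences without a call were not followed. Same-numbered handled arrays of the 2 regions showed correlations of -0.003, -0.017 and -0.016, so the numbers were not taken to pair them. With the replicate number as a block there were 2703 calls in handled arrays, 3603 in stress arrays and 19 in the interaction. Dim transcripts such as Mlf1 and Sult1d1 in cortex lie near the offset, which limits their folds.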
